A study of Rattus norvegicus with 12 samples.

Results

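The 36 genes described here encode the chaperones, folding enzymes, sensors, degradation factors and import and export components of the endoplasmic reticulum (ER), and were measured by RNA sequencing in rat Schwann cells. They were taken by gene symbol from 30957 annotated genes, and each symbol stood on a single gene. A count was found in at least 1 library for 35 of them and all 35 passed the filter on low counts, as did 12360 genes in all. The exception, Derl3, had 0 counts in all 12 libraries, as did Smarcb1, whose locus overlaps it.

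The cells were grown in 4 groups of 3 libraries. In the MiaTAM group, Schwann cells were co-cultured with tumour-associated macrophages (TAMs) induced by supernatant of the human pancreatic cancer line MIA PaCa-2. In the BxTAM group the macrophages were induced by supernatant of BxPC-3, a second human pancreatic cancer line. In the MDM group, titled PBMC in the labels, the co-cultured cells were monocyte-derived macrophages. The cells alone are titled Rsc96, although their descriptions read HSC96. They were untreated and were taken as the immortalised rat Schwann line RSC96, so that a single line limits all groups as a model. Separate cultures are not stated for the replicates, and p-values therefore measure only how far these samples spread, which may be technical.

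The ER folds secreted and membrane proteins. Chaperones of the HSP70 and HSP90 families and lectins hold unfolded chains, disulfide isomerases fed by ERO1 oxidases form their disulfide bonds, and chains that do not fold are passed back to the cytosol for degradation by the proteasome (ER-associated degradation, ERAD). When unfolded chains accumulate, the sensors IRE1 (gene Ern1), ATF6 and PERK start the unfolded protein response, in which XBP1 and cleaved ATF6 switch on many of these genes through short promoter elements. Schwann cells make large amounts of myelin and basal lamina protein, and stress of their ER is known from inherited neuropathies.

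The promoter elements are shown first, because members that carry them and members that do not are compared among the results. The motifs were searched on both strands of RefSeq promoter windows of 300 bases (build GRCr8, 250 bases before to 50 after the annotated start). They were the ER stress element ERSE (CCAAT and CCACG separated by 9 bases), ERSE-II (ATTGG and CCACG separated by 1 base) and the core of the XBP1-bound element UPRE (TGACGTGG). A window was found for 26 of 36 members, 25 by symbol and 1, Ero1lb, by an older name. The 250 bases before the start are given 5′ to 3′ on the gene's strand for 4 members, with the fixed letters of the matched motifs in capitals. Hspa5 and Hsp90b1 are the chaperone genes that fell most with MiaTAM, Xbp1 encodes the factor itself, and Hyou1 carries the other motifs. The windows lie at chr3:38452766-38453015 on the plus strand (Hspa5), chr7:23012294-23012543 on the minus strand (Hsp90b1), chr14:84604373-84604622 on the plus strand (Xbp1) and chr8:53602632-53602881 on the plus strand (Hyou1).
Hspa5: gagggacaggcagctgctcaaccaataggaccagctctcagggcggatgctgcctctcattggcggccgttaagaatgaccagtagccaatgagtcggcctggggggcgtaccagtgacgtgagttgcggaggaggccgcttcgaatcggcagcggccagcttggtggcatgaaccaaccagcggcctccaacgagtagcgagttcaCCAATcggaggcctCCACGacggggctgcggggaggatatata
Hsp90b1: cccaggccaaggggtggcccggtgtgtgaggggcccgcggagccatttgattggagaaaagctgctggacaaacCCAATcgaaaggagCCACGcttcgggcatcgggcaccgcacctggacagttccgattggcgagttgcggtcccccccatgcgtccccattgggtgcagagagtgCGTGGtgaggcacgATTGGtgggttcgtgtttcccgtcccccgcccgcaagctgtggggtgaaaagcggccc
Xbp1: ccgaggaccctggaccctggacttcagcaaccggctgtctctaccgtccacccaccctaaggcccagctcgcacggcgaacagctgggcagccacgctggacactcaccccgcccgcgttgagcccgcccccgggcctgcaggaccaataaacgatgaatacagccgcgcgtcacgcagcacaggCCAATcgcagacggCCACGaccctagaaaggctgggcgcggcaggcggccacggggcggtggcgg
Hyou1: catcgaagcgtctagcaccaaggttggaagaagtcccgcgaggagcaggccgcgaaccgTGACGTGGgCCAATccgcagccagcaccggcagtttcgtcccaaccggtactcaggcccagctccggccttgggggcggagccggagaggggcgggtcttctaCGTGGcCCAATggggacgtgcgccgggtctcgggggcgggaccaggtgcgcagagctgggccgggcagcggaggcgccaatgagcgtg
In Hspa5 the ERSE begins 43 bases before the start, and in Xbp1 it begins 65 bases before it. The Hsp90b1 window holds 2 ERSEs on opposite strands. The Hyou1 window holds 2 ERSE-IIs on the minus strand, the more distant of which overlaps the UPRE core.

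The matches of the other members are given in the direction of the motif, so that fixed letters (capitals) line up and the spacer (lower case) can be compared. The first 6 are ERSEs and the last 2 are ERSE-IIs.
Calr: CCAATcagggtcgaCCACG
Canx: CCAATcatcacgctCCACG
Dnajc3: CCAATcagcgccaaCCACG
Creld2: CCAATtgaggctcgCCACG
Ero1lb: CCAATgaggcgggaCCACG
Derl3: CCAATaaggaagtcCCACG
Dnajb11: ATTGGcCCACG
Herpud1: ATTGGgCCACG
Outside the fixed letters the 9-base spacers of the ERSEs differed from gene to gene. An ERSE was present in 9 of 26 member windows (34.6%), against 22 of 33469 windows of the whole table (0.0657%). ERSE-II was present in 3 member windows (11.5%), against 17 of all windows (0.0508%). The UPRE core stood in the windows of Hyou1 and Txndc11 (7.69%), against 0.595% of all windows. The short parts were common in their own right: CCAAT occurred on either strand in 80.8% of member windows and 37.5% of all windows, and CCACG in 92.3% and 31.6%. Many of these genes are known to be switched on through such elements, as stated above, so the higher shares among members are not an independent result. A match describes letters only and is not evidence of binding.

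Library totals ran from 16555215 to 21506669 counts. The cells' label was checked against Schwann cell markers. Sox10 had 1 count over all libraries, S100b had 43 and Cdh19 had 0, so these 3 lineage markers were at or near 0 in every group. Other genes of the marker list were expressed, among them Ncam1, with group means of 107 to 196 CPM, Sox2, with 38.6 to 43.9 CPM, Dhh, with 7.73 to 20.7 CPM, and Erbb3, with 7.14 to 15.2 CPM. The summed level of the list was 301 to 314 CPM in MiaTAM, 291 to 297 CPM in BxTAM, 337 to 371 CPM in MDM co-culture and 252 to 269 CPM in cells alone, and its part in the results was not tested. A list of 7 fibroblast genes was higher in sum, at 493 to 528 CPM in MiaTAM and 443 to 469 CPM in BxTAM. It was 509 to 536 CPM in MDM co-culture and 389 to 400 CPM in cells alone. Thy1 made most of it, while Dcn and Lum were at 0. The cells were therefore named by their label. Of 20 macrophage and monocyte genes, 15 were below 1 CPM (counts scaled to a common library size after TMM) in every library, and Tyrobp, Marco and C1qa were at 0. Their summed level was 61.9 to 66.7 CPM in MiaTAM, 55.5 to 58.3 CPM in BxTAM, 58.9 to 65.7 CPM in MDM co-culture and 26.5 to 29.3 CPM in cells alone. Itgax made most of it, at 46.2 CPM with MDM and 17.2 CPM in cells alone. The species of the macrophages was not given, and the reads were counted on rat genes. These marker levels therefore do not show how much macrophage RNA was present, and its part in the results below was not tested. In bulk RNA, fewer cells of a type and less RNA per cell cannot be told apart.

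Together the members took 1.46% ± 0.0349 of a library's counts with MiaTAM, 1.56% ± 0.00861 with BxTAM, 2.29% ± 0.0604 with MDM and 1.24% ± 0.0193 in cells alone (SD, n = 3). The MDM share was thus the highest and the share of cells alone the lowest. The MDM group had the highest mean of the 4 groups for 29 of 35 tested members (82.9%), while it was highest for 24.8% of the 12360 tested genes. For 26 members (74.3%) every MDM library lay above every other library, against 1091 of all tested genes (8.83%). BxTAM had the highest mean for Sel1l, Os9 and Derl2, and cells alone for Atf6, Dnajb11 and Edem1. MiaTAM had it for 0 members.

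On a scale that allows genes to be compared (FPKM, per length), Hspa5 was the most abundant member with MDM, at 1684 ± 90.5 FPKM, followed by P4hb at 1229 ± 43.8, Calr at 1021 ± 17.1 and Ero1l at 995 ± 70.8 FPKM. In cells alone the order was different, with Calr at 591 ± 10.8, Pdia3 at 583 ± 18.5, P4hb at 513 ± 13.7 and Hspa5 at 435 ± 9.73 FPKM (SD, n = 3). Calr and Pdia3 differed there by less than their SDs, so their order is not resolved. At the low end with MDM stood Syvn1 at 9.76 ± 0.405 FPKM and Ero1lb at 15.4 ± 1.64 FPKM. Low levels were also found among the BiP partners, with 19.8 ± 1.14 FPKM for Sdf2l1 and 21.0 ± 0.453 FPKM for Dnajb9, so transcript levels within the list were spread widely.

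**Figure D1:**
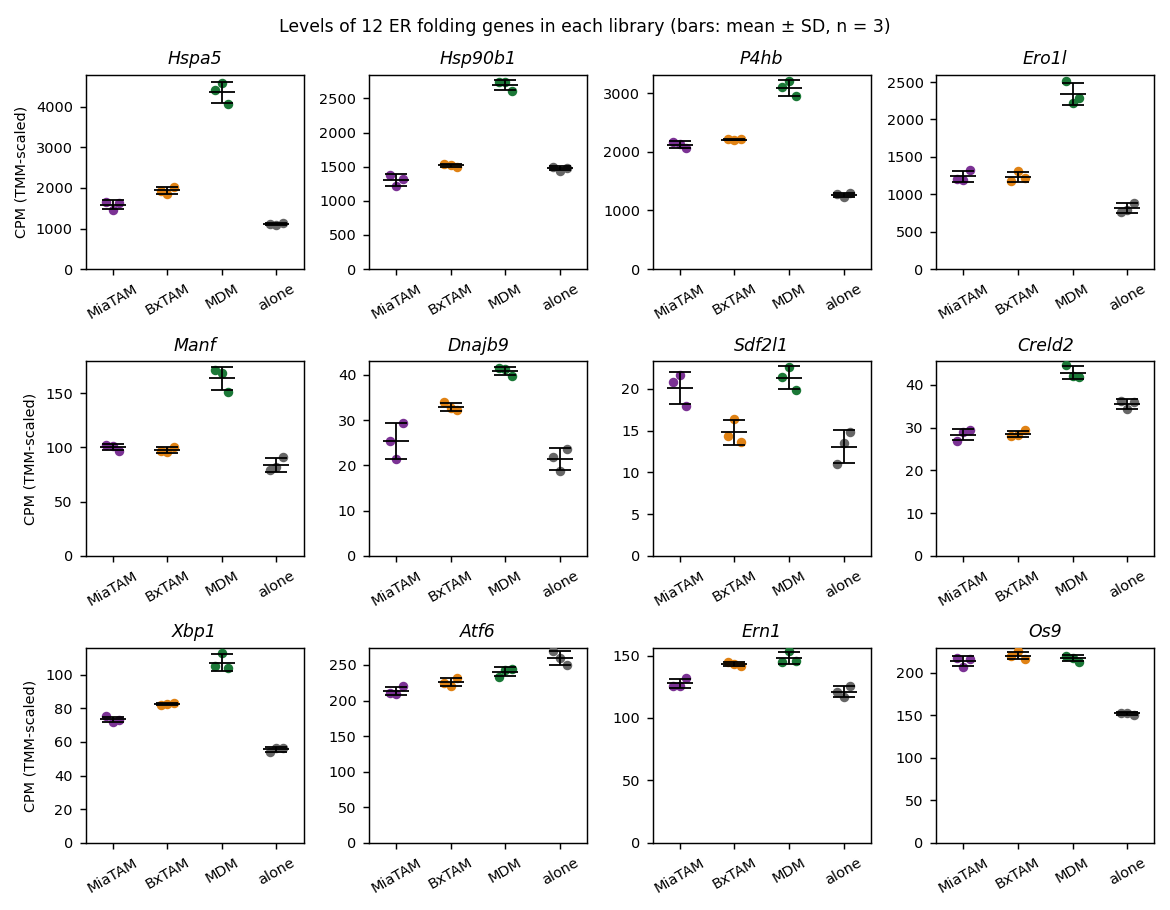
CPM of 12 members in each of 12 libraries (points), by group, with mean ± SD of 3 libraries (bars); every axis starts at 0. For Hspa5 the MDM libraries lie between 4067 and 4585 CPM, above all libraries of the other groups, while Os9 stays near 217 CPM with MDM and 152 CPM in cells alone and Atf6 is highest in cells alone.

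The comparison of MDM co-culture with cells alone asks how these genes differed in the presence of monocyte-derived macrophages. Of 35 tested members, 31 were higher with MDM (32% of all 12360 tested genes were called higher) and 2, Atf6 and Edem1, were lower (33.1% of all tested genes). Calls are from edgeR's quasi-likelihood test at a Benjamini-Hochberg adjusted p under 0.05 over all tested genes. The members' median log2 change was 0.51, against -0.01 over all tested genes. Dnajb11 and Derl2 were not called. A change of 2-fold or more was found in 3 members, Hspa5, Ero1l and P4hb (5.14% of all tested genes were called higher by 2-fold or more).

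Among the HSP70 and HSP90 genes, 8 of 9 rose. Hspa5 (BiP, the main HSP70 of the ER lumen; ENSRNOG00000018294, chr3:13838304-13842762 in Rnor_6.0) had 4415, 4585 and 4067 CPM with MDM, against 1108, 1075 and 1133 CPM in cells alone. The groups did not overlap, and all MDM libraries stood far above every library of cells alone. The log2 change was 1.98 ± 0.05 (standard error; adjusted p = 1.08e-16), a fold of 3.94. Hsp90b1 (GRP94, the ER HSP90) had 2735, 2746 and 2612 CPM with MDM, against 1501, 1444 and 1485 CPM in cells alone, and rose by 0.87 ± 0.04 on the log2 scale. Manf, an ER-resident and secreted factor that binds BiP, had 171, 168 and 151 CPM with MDM, against 79.1, 81.9 and 91.4 CPM in cells alone. It rose by 0.96 ± 0.05 (adjusted p = 3.42e-12), with its groups well apart.

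Dnajb9 (ERdj4, a J protein that brings BiP to IRE1 and to ERAD clients) rose by 0.93 ± 0.09, and Hyou1 (GRP170, a nucleotide exchange factor of BiP) by 0.91 ± 0.04. Sdf2l1, a partner of the J protein ERdj3, rose by 0.70 ± 0.10 at low levels, with 21.3 CPM on average with MDM and 13.1 CPM in cells alone. The J protein Dnajc3 and the HSP70-like Hspa13 rose less, by 0.43 and 0.31. Dnajb11, which encodes ERdj3 itself, had a log2 change of -0.10 ± 0.05 and was not called (adjusted p = 0.0698). Its 92.3, 88.4 and 88.3 CPM with MDM overlapped the 92.2, 92.2 and 103.7 CPM in cells alone, so the ERdj3 gene and its partner gene differed in whether they passed the test.

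All 10 disulfide and proline isomerization genes rose. Ero1l (ERO1-alpha, the oxidase that recharges disulfide isomerases; ENSRNOG00000006462, chr15:19619973-19655381) had 2513, 2225 and 2291 CPM with MDM, against 769, 792 and 889 CPM in cells alone, a log2 change of 1.52 ± 0.06 (adjusted p = 1.17e-14). P4hb, which encodes protein disulfide isomerase and serves also as the beta subunit of collagen prolyl 4-hydroxylase, had 3114, 3207 and 2947 CPM with MDM, against 1273, 1225 and 1302 CPM in cells alone. It rose by 1.29 ± 0.04 (adjusted p = 9.81e-16). Neither gene's groups overlapped, and each rose further than the other 8 genes of this role. Ero1lb (ERO1-beta) had 58.9, 49.2 and 50.2 CPM with MDM, against 28.7, 24.8 and 25.8 CPM in cells alone, and rose by 1.00 ± 0.07 (adjusted p = 1.59e-10).

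The other isomerases moved less. Txndc11, a thioredoxin-domain partner of the EDEM lectins, rose by 0.63, Pdia6 by 0.47, Pdia4 by 0.38, Ppib (cyclophilin B, a proline isomerase) by 0.35, Pdia3 (ERp57, which works with the lectins) by 0.31, Creld2 by 0.27 and Txndc5 by 0.21. These values span from 0.21 to 0.63 on the log2 scale, below the 1.29 of P4hb. The lectin chaperones calreticulin (Calr) and calnexin (Canx), which hold chains by their N-glycans, rose by 0.81 ± 0.04 and 0.41 ± 0.05.

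The sensor genes Ern1 and Atf6 and the transcription factor gene Xbp1 did not move together. Xbp1, the transcription factor of the IRE1 branch, had 105, 113 and 104 CPM with MDM, against 53.8, 56.4 and 56.5 CPM in cells alone, and rose by 0.95 ± 0.04 (adjusted p = 2.09e-13). Ern1 (IRE1-alpha, the kinase and nuclease that splices Xbp1 mRNA) had 145, 154 and 146 CPM with MDM, against 121, 117 and 126 CPM in cells alone. It rose by 0.29 ± 0.04 (adjusted p = 2.26e-06) without overlap of the groups. Atf6, the sensor that is cut to release a transcription factor, had 233, 244 and 245 CPM with MDM, against 270, 259 and 250 CPM in cells alone. It fell by 0.11 ± 0.04 on the log2 scale (adjusted p = 0.0188), with only a small gap between the groups. This call was lost without replicate 1 of either group, and also with upper-quartile factors in place of TMM. Without MDM replicate 1, Edem1 was the only member called lower. Sensor activity is set by splicing and cleavage, which gene counts do not show.

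Of 7 tested ERAD genes, 5 rose and Edem1 fell. Sel1l and Syvn1 (HRD1), the scaffold and the ubiquitin ligase of the main ERAD complex, rose by 0.57 and 0.54, and Herpud1, a membrane protein of that complex, rose by 0.55. Os9, the lectin that hands glycoproteins to the complex, had 220, 217 and 213 CPM with MDM, against 153, 153 and 151 CPM in cells alone, a log2 change of 0.51. The 3 libraries of each group lay within a few CPM of each other. Derl1, of the derlins that move chains out of the ER, rose by 0.38. Derl2 had a change of 0.00 ± 0.08 and was not called (adjusted p = 0.984). Edem1, which trims mannose from misfolded glycoproteins, fell by 0.23 ± 0.04.

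All 4 import and export genes rose. Sec61a1, the pore of the translocon, rose by 0.63, its small subunit gene Sec61b by 0.35, Ssr1 (TRAP-alpha, a translocon partner) by 0.49 and Sec24d (a COPII coat subunit that selects cargo) by 0.61. Their changes lay close to the median of the whole list.

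**Figure D2:**
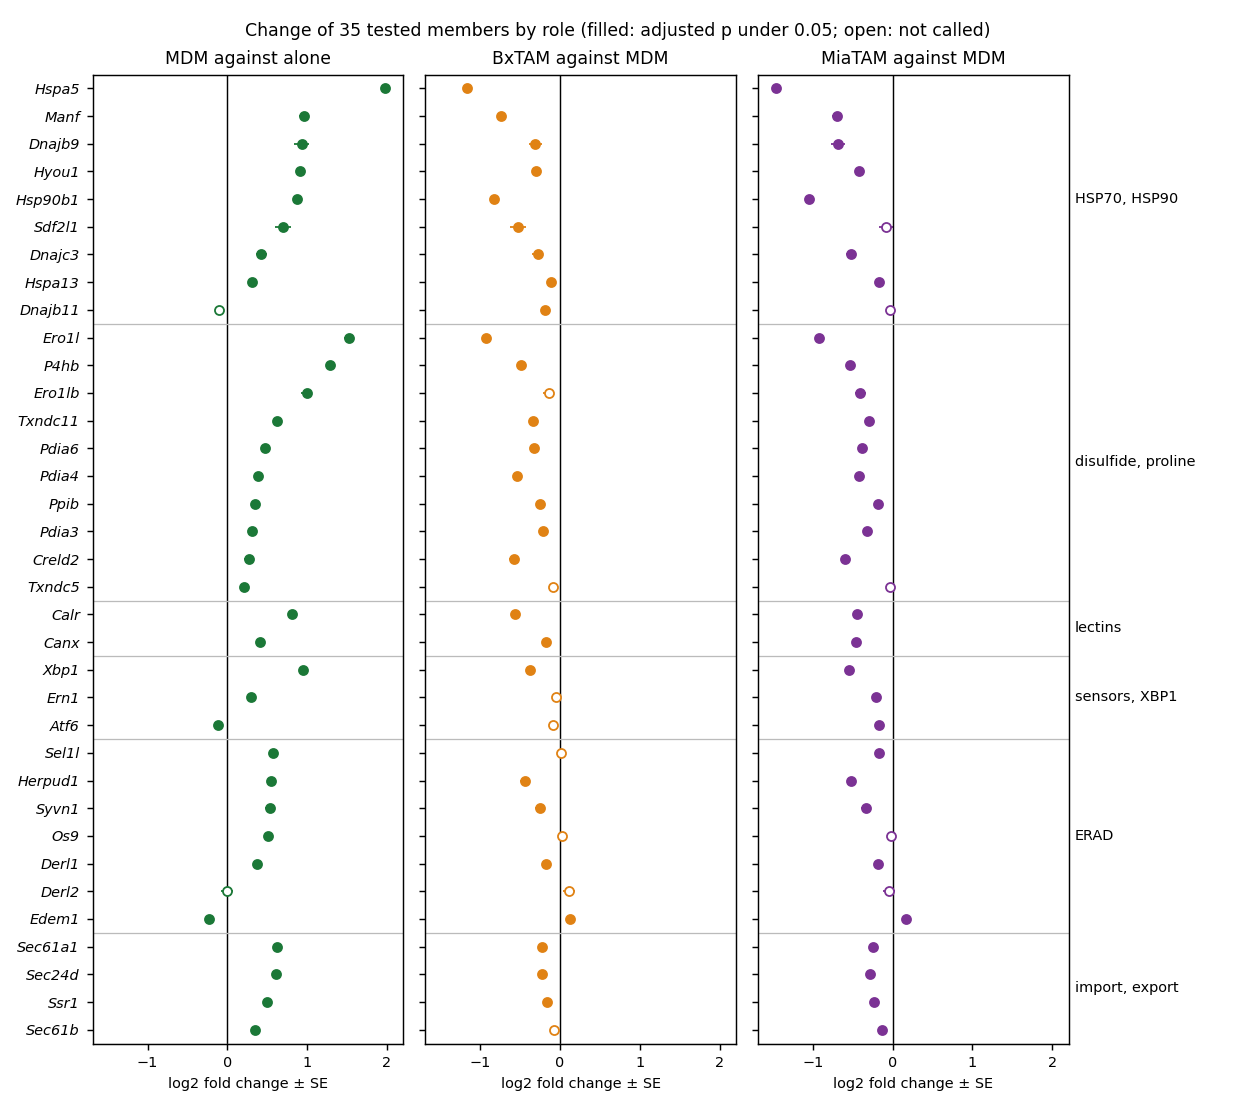
Log2 fold change ± SE of 35 tested members, ordered by role and by the change with MDM, for MDM against cells alone, BxTAM against MDM and MiaTAM against MDM (3 libraries against 3; filled points passed adjusted p under 0.05). Most members lie right of 0 in the first panel and left of 0 in the others, with Hspa5 farthest out in each.

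BxTAM co-culture was then set against MDM co-culture, which asks whether macrophages induced by BxPC-3 supernatant left the Schwann cells with other levels than monocyte-derived macrophages did. Of 35 tested members, 26 were lower with BxTAM (17.3% of all tested genes were called lower) and 1, Edem1, was higher (17.4% of all tested genes). The median log2 change was -0.25, against 0.00 over all tested genes. The 8 members not called were Atf6, Ern1, Sel1l, Derl2, Sec61b, Ero1lb, Txndc5 and Os9. Only Hspa5 was lower by 2-fold or more (1.03% of all tested genes were).

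Hspa5 had 1933, 1855 and 2034 CPM with BxTAM, against 4415, 4585 and 4067 CPM with MDM. The groups did not overlap, and the log2 change was -1.17 ± 0.05 (adjusted p = 1.24e-12), 2.24-fold lower. Ero1l had 1183, 1308 and 1212 CPM with BxTAM, against 2513, 2225 and 2291 CPM with MDM, and fell by 0.93 ± 0.06 (adjusted p = 1.43e-10). Both stayed above their levels in cells alone. Hsp90b1 had 1535, 1521 and 1496 CPM with BxTAM, against 2735, 2746 and 2612 CPM with MDM, and fell by 0.83 ± 0.04 (adjusted p = 1.02e-11). With 1501, 1444 and 1485 CPM in cells alone, its BxTAM level overlapped that of cells alone and was not called different from it (log2 change 0.04 ± 0.04, adjusted p = 0.446).

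Manf had 97.1, 95.3 and 100.6 CPM with BxTAM, against 171, 168 and 151 CPM with MDM, and fell by 0.74 ± 0.05 (adjusted p = 1.03e-09). Creld2, an ER-resident protein with disulfide isomerase-like motifs, had 28.1, 28.4 and 29.4 CPM with BxTAM, against 44.6, 42.1 and 41.8 CPM with MDM. It fell by 0.58 ± 0.06 (adjusted p = 1.9e-07), and its BxTAM libraries also lay below the 34.3 to 36.3 CPM of cells alone. Every one of the 9 HSP70 and HSP90 genes fell, the smallest fall being 0.11 for Hspa13 (adjusted p = 0.0481), whose call was lost under most alternatives, among them leaving out any 1 of the MDM or BxTAM libraries. Of the 10 disulfide and proline isomerization genes 8 fell, among them Pdia4 (ERp72) by 0.54, P4hb by 0.48 and Pdia6 by 0.33. Calr fell by 0.57 and Canx by 0.17.

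Xbp1 had 81.9, 82.5 and 83.1 CPM with BxTAM, against 105, 113 and 104 CPM with MDM, and fell by 0.38 ± 0.04 (adjusted p = 8.12e-07). Its 3 BxTAM libraries were nearly equal and lay below all MDM libraries. Ern1, at 145, 143 and 141 CPM with BxTAM, had a change of -0.05 ± 0.04 and was not called (adjusted p = 0.345). Atf6, at 225, 220 and 232 CPM with BxTAM, had a change of -0.09 ± 0.04 and was not called either (adjusted p = 0.0869). Among ERAD genes Herpud1 fell by 0.44, Syvn1 by 0.25 and Derl1 by 0.17, whereas Sel1l (0.01 ± 0.04) and Os9 (0.02 ± 0.04) had values near 0. Edem1 rose by 0.12 (adjusted p = 0.0295), a call that was lost without a count filter and without replicate 1 or 2 of either group, which leaves 0 members higher. Of the import and export genes, Sec61a1 and Sec24d fell by 0.22 and 0.23 and Ssr1 by 0.17.

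MiaTAM co-culture against MDM co-culture puts the same question for MIA PaCa-2. Of 35 tested members, 29 were lower with MiaTAM (21.1% of all tested genes were called lower) and 1, again Edem1, was higher (19.8% of all tested genes). The median log2 change was -0.32, against -0.01 over all tested genes. Dnajb11, Sdf2l1, Derl2, Txndc5 and Os9 were not called. Hspa5 and Hsp90b1 were lower by 2-fold or more (0.72% of all tested genes were). Both TAM comparisons use the same MDM libraries, so their values are given side by side and are not independent of each other.

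Hspa5 had 1663, 1463 and 1627 CPM with MiaTAM, against 4415, 4585 and 4067 CPM with MDM. Its log2 change of -1.46 ± 0.05 (adjusted p = 6.13e-14), 2.75-fold lower, was the 12th largest fall among 12360 tested genes. Hsp90b1 had 1382, 1214 and 1316 CPM with MiaTAM, against 2735, 2746 and 2612 CPM with MDM, and fell by 1.05 ± 0.04 (adjusted p = 3.99e-13). All 3 MiaTAM libraries of Hsp90b1 also lay below every library of cells alone, by 0.18 ± 0.04 on the log2 scale (adjusted p = 0.00116). Ero1l had 1198, 1197 and 1320 CPM with MiaTAM, against 2513, 2225 and 2291 CPM with MDM, and fell by 0.92 ± 0.06 (adjusted p = 1.58e-10).

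Manf had 102.6, 101.1 and 96.9 CPM with MiaTAM, against 171, 168 and 151 CPM with MDM, a log2 change of -0.70 ± 0.05 (adjusted p = 2.21e-09). Dnajb9 had 25.5, 21.4 and 29.3 CPM with MiaTAM, against 41.5, 41.3 and 39.8 CPM with MDM, and fell by 0.68 ± 0.09 (adjusted p = 3.92e-06). The MiaTAM libraries of Dnajb9 were spread more widely than the MDM libraries but did not reach them. Sdf2l1, which fell with BxTAM, had a change of -0.08 ± 0.10 with MiaTAM (adjusted p = 0.527), and its 20.8, 21.6 and 17.9 CPM overlapped the 21.4, 22.6 and 19.8 CPM with MDM. Of the disulfide and proline isomerization genes 9 of 10 fell, including Creld2 by 0.59, P4hb by 0.54, Pdia4 by 0.43 and Ero1lb by 0.41.

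The sensor genes Ern1 and Atf6 and the transcription factor gene Xbp1 all fell with MiaTAM. Xbp1 had 75.2, 71.9 and 73.2 CPM with MiaTAM, against 105, 113 and 104 CPM with MDM, and fell by 0.55 ± 0.04 (adjusted p = 4.37e-09). Ern1 had 126, 126 and 132 CPM with MiaTAM, against 145, 154 and 146 CPM with MDM, and fell by 0.21 ± 0.04 (adjusted p = 0.000237). Atf6 had 210, 209 and 220 CPM with MiaTAM, against 233, 244 and 245 CPM with MDM, and fell by 0.17 ± 0.04 (adjusted p = 0.00159). The groups of all 3 genes were apart, with the widest gap for Xbp1. Of the ERAD genes Herpud1 fell by 0.52, Syvn1 by 0.33, Derl1 by 0.18 and Sel1l by 0.17, and all 4 import and export genes fell, by 0.14 to 0.28. The smallest of these, Sec61b, lost its call under most alternatives, including without any 1 of the MDM or MiaTAM libraries.

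MiaTAM and BxTAM co-culture were compared directly, which tests whether the macrophages induced by the 2 cancer lines differed in effect. Of 35 tested members, 4 were higher with MiaTAM (11% of all tested genes were called higher) and 10 were lower (13.3% of all tested genes). The share of members called higher, 11.4%, was close to that of all genes, and the share called lower, 28.6%, was above it. The median log2 change was -0.06, against 0.00 over all tested genes. The 21 members not called included Ero1l (0.01 ± 0.06), Creld2 (-0.01 ± 0.06), Manf (0.04 ± 0.06) and P4hb (-0.06 ± 0.04), which did not pass the test.

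The largest difference was that of Sdf2l1, with 20.8, 21.6 and 17.9 CPM with MiaTAM, against 14.4, 16.4 and 13.6 CPM with BxTAM. It was higher with MiaTAM by 0.44 ± 0.10 on the log2 scale (adjusted p = 0.00358). Dnajb11, Calr and Pdia4 were higher by 0.16, 0.12 and 0.11. In the other direction, Dnajb9 had 25.5, 21.4 and 29.3 CPM with MiaTAM, against 34.0, 32.7 and 32.2 CPM with BxTAM, and was lower by a log2 change of -0.37 ± 0.09 (adjusted p = 0.00546). The libraries of both genes were apart between groups. The J protein gene Dnajb9 moved opposite to Sdf2l1 and Dnajb11, though the Dnajb11 call was lost when single libraries were left out.

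Hspa5 had 1663, 1463 and 1627 CPM with MiaTAM, against 1933, 1855 and 2034 CPM with BxTAM, a log2 change of -0.29 ± 0.05 (adjusted p = 0.000542). Canx had 1488, 1292 and 1520 CPM with MiaTAM, against 1725, 1739 and 1769 CPM with BxTAM, and fell by 0.28 ± 0.05 (adjusted p = 0.000595). The lectin genes were thus called in opposite directions, Canx lower and Calr higher. Ero1lb had 39.4, 38.8 and 40.8 CPM with MiaTAM, against 46.2, 49.8 and 47.5 CPM with BxTAM, and fell by 0.27 ± 0.07 (adjusted p = 0.00828). Dnajc3, Hsp90b1, Sel1l, Xbp1, Ern1 and Hyou1 fell by 0.24, 0.22, 0.18, 0.17, 0.16 and 0.12. Atf6 had a change of -0.08 ± 0.04 and was not called (adjusted p = 0.139). Of the 14 calls, 5 were lost when single libraries were left out, those of Pdia4, Calr, Dnajb11, Dnajc3 and Hyou1. The number called higher was 2 without BxTAM replicate 2, BxTAM replicate 3 or MiaTAM replicate 3.

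**Figure D3:**
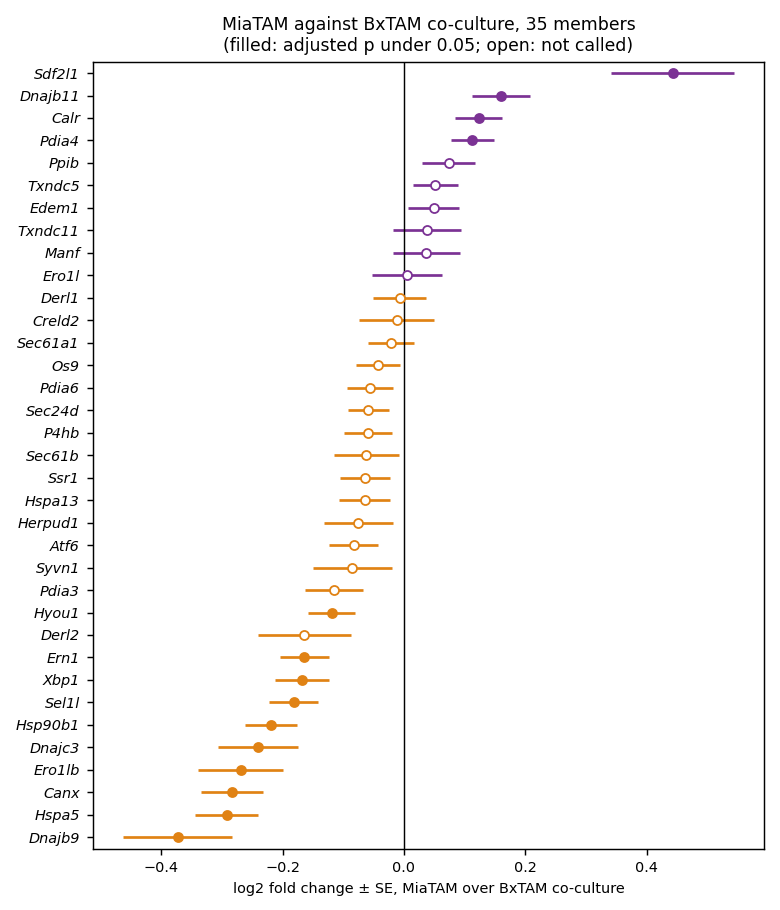
Log2 fold change ± SE of MiaTAM over BxTAM co-culture for 35 members (3 libraries against 3; filled points passed adjusted p under 0.05). Sdf2l1 at 0.44 stands apart on the right, and the 10 members called lower run down to -0.37 for Dnajb9.

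The TAM groups were also set against cells alone. With MiaTAM 23 members were higher than in cells alone (31.4% of all tested genes) and 4 were lower (33.7%), and with BxTAM 23 were higher (30% of all tested genes) and 5 were lower (30.9%). Hspa5 was higher by 0.52 ± 0.05 with MiaTAM and by 0.81 ± 0.05 with BxTAM, and P4hb by 0.74 ± 0.04 and 0.80 ± 0.04. Os9 and Sel1l were above cells alone by 0.49 and 0.40 with MiaTAM and by 0.53 and 0.58 with BxTAM, against 0.51 and 0.57 with MDM. Hence the values of these ERAD genes with BxTAM were nearly those with MDM, in contrast to Hspa5. Creld2 (-0.32 with MiaTAM and -0.31 with BxTAM), Atf6 (-0.28 and -0.20) and Dnajb11 (-0.13 and -0.29) were called lower than in cells alone with both. These comparisons share the libraries of cells alone.

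Members with an ERSE or ERSE-II were set beside those with neither, as counts and medians with no test of the difference. Only exact matches within the window were counted, so members with neither may still carry a variant or more distant element. Txndc11, whose window holds a UPRE core, stands among those with neither. With MDM against cells alone, 10 of 11 tested members with an element rose, with a median log2 change of 0.81, and 12 of 14 members with a window and neither element rose, with a median of 0.44. Dnajb11 was the member with an element that did not rise. With BxTAM against MDM 10 of 11 members with an element fell (median -0.38), as did 9 of 14 with neither (median -0.21). With MiaTAM against MDM 10 of 11 fell (median -0.52), as did 10 of 14 with neither (median -0.18). With TAMs against cells alone this order of medians was not seen. With MiaTAM 5 of 11 members with an element were higher and 3 lower (median 0.03), and 11 of 14 with neither were higher and 0 lower (median 0.21). With BxTAM 6 of 11 were higher and 2 lower (median 0.23), and 9 of 14 with neither were higher and 2 lower (median 0.24). The windows of 27 other genes also held an element, and 13 of these genes were tested. With MDM against cells alone 4 of them rose and 7 fell, with a median of -0.26, beside 32% and 33.1% of all tested genes. With MiaTAM against MDM 3 rose and 7 fell (median -0.16), and with BxTAM against MDM 2 rose and 5 fell (median -0.04).

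**Figure D4:**
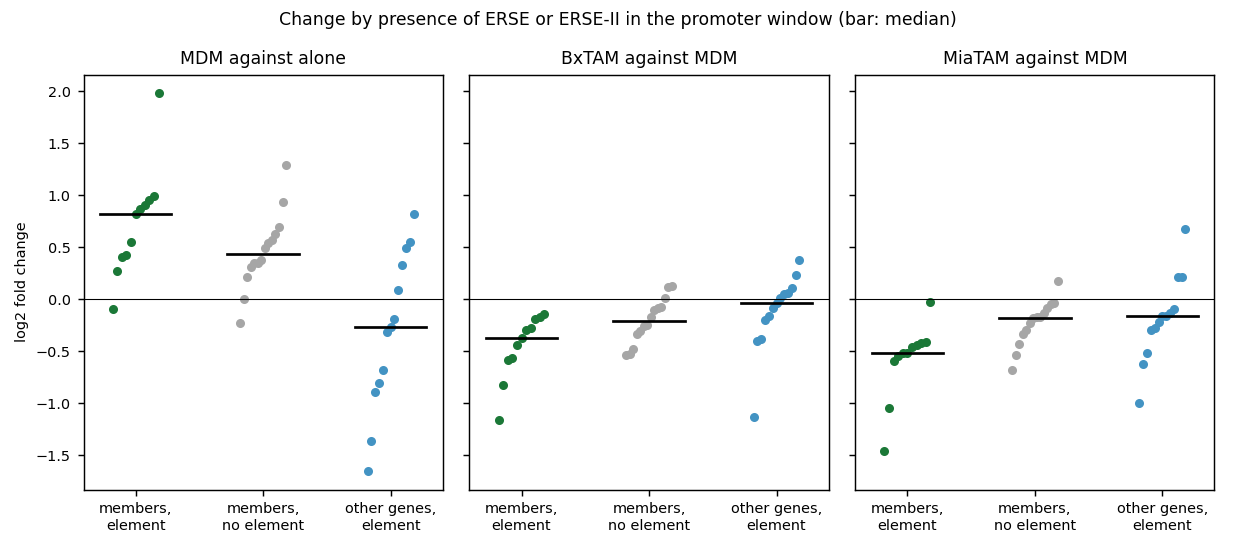
Log2 fold change of each tested gene (points; bar, median) for members with an ERSE or ERSE-II in the promoter window, members with neither, and other genes with an element, in 3 comparisons. Medians with MDM against cells alone are 0.81, 0.44 and -0.26, and the ranges of the 3 sets overlap.

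Neighbouring lists of the secretory pathway were read in the same fit. Of 20 genes of COPII transport and ER-Golgi traffic, 18 were higher and 1 lower with MDM than in cells alone, with a median log2 change of 0.61. Kdelr3, a receptor that returns ER proteins from the Golgi, rose by 1.06 ± 0.05, and the COPII coat gene Sec24a by 1.03 ± 0.04. Of 13 collagen folding and modification genes 12 rose, led by the prolyl 4-hydroxylase alpha subunits P4ha1 (1401 against 566 CPM, log2 change 1.31 ± 0.05) and P4ha2 (1.25 ± 0.04), whose beta subunit is the member P4hb. Of 21 genes of ER import, signal peptidase and N-glycosylation, 14 rose and 3 fell. Srpr, a subunit of the signal recognition particle receptor, rose by 1.07 and the oligosaccharyltransferase gene Stt3a by 0.60, whereas the signal peptidase gene Spcs1 fell by 0.23. In each of these 3 lists most genes were called higher, beside 32% of all tested genes.

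The other ER lists were read beside the same shares of all tested genes, 32% higher and 33.1% lower. Of 11 genes of N-glycan trimming and lectin quality control 8 rose and 2 fell (median 0.28), with the cargo lectin gene Lman1 at 0.78 and the folding sensor gene Uggt2 at -0.67. Of 10 other disulfide genes 7 rose and 2 fell (median 0.20), with Pdia5 at 0.92. Of 17 other ERAD and extraction genes 7 rose and 4 fell (median 0.09), shares not far from those of all genes. Among them Vimp rose by 0.83, Ufd1l fell by 0.71 and Vcp, the ATPase that pulls chains into the cytosol, fell by 0.43. Of 14 genes of sensor processing, ER calcium and BiP cofactors 9 rose and 3 fell (median 0.26). In that list Creb3l1, a membrane-bound transcription factor cut like ATF6, rose by 0.93 and the calcium channel gene Itpr1 fell by 0.74.

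Genes of the PERK branch and chaperones outside the ER were read in the same way. Of 11 tested genes of the PERK-ATF4-CHOP arm 3 rose and 6 fell with MDM (median -0.10), beside 32% and 33.1% of all tested genes. Its share of rises was near that of all genes, and its share of falls was above that of all genes. Ddit3, which encodes CHOP, averaged 203 CPM with MDM and 57.5 CPM in cells alone and rose by 1.82 ± 0.07 (adjusted p = 6.65e-15), next to Hspa5 in size. Atf4, the factor upstream of it, averaged 216 CPM with MDM and 401 CPM in cells alone and fell by 0.89 ± 0.04, and the ATF4 target Chac1 fell by 1.57 ± 0.04. Of 13 cytosolic and mitochondrial chaperones 1 rose and 7 fell (median -0.28), with Hspd1, the mitochondrial HSP60, at -0.99 and the cytosolic Hsph1 at -0.96. Most ER members rose in this comparison, whereas most called chaperones of the cytosol and mitochondria fell.

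The same lists were read with TAMs against MDM, where 21.1% of all tested genes were lower and 19.8% higher with MiaTAM, and 17.3% lower and 17.4% higher with BxTAM. With MiaTAM 12 of 20 COPII and traffic genes fell and 0 rose, and with BxTAM 12 fell and 1 rose. Of 13 collagen genes 8 fell and 2 rose with MiaTAM, and 10 fell and 0 rose with BxTAM. Of 21 import and glycosylation genes 10 fell and 0 rose with MiaTAM, and 10 fell and 1 rose with BxTAM. In these 3 lists the genes called lower were a larger share than among all genes. Most of the remaining lists also had a larger share called lower than all genes did. In some of them the share called higher was larger too. The counts of these lists follow. Of 11 genes of N-glycan trimming 6 fell and 1 rose with MiaTAM, and 4 fell and 3 rose with BxTAM. Of 10 other disulfide genes 3 fell and 1 rose with MiaTAM, and 3 fell and 0 rose with BxTAM. Of 17 other ERAD genes 6 fell and 4 rose with MiaTAM, and 4 fell and 1 rose with BxTAM. Their median changes lay between -0.13 and 0.04. Of 14 sensor processing and calcium genes 5 fell and 5 rose with MiaTAM, and 2 fell and 3 rose with BxTAM. Of 11 genes of the PERK-ATF4-CHOP arm 5 fell and 4 rose with MiaTAM, and 3 fell and 5 rose with BxTAM. Within that arm Ddit3 fell by 1.45 ± 0.07 with MiaTAM and by 0.92 ± 0.06 with BxTAM, and was lower with MiaTAM than with BxTAM by a log2 change of -0.53 ± 0.07 (adjusted p = 2.53e-05). Of 13 cytosolic and mitochondrial chaperones 2 fell and 5 rose with MiaTAM, and 2 fell and 4 rose with BxTAM, with the small heat shock gene Hspb1 at 0.70 and 0.45.

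**Figure D5:**
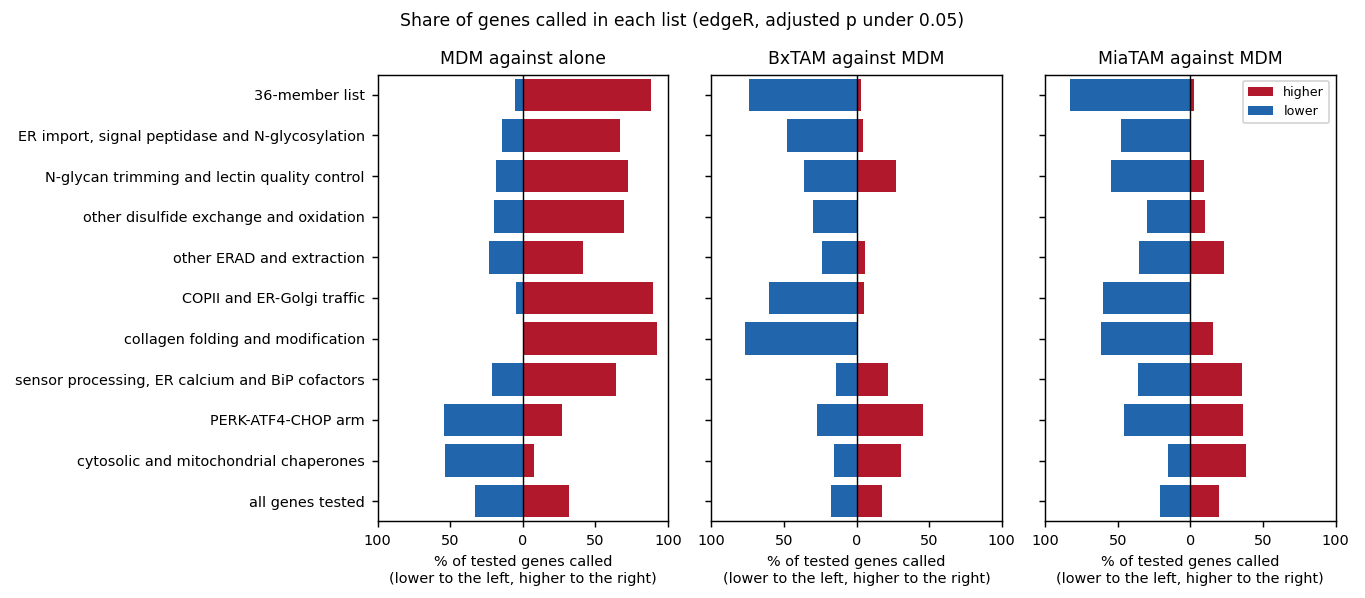
Percent of tested genes called higher (right) and lower (left) in the 36-member list, 9 neighbouring lists and all genes tested, in 3 comparisons. The member, COPII and collagen bars point right with MDM against cells alone and left with both TAMs against MDM, while the bars of cytosolic and mitochondrial chaperones point mainly left in the first panel.

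Some members share their locus with another annotated gene, and whether reads were assigned by strand is not stated. Pdia3, Dnajc3, Syvn1, Ero1lb and Txndc11 overlap an expressed gene in the annotation of the table, the partners of 4 of them being Ppip5k1, Mrpl49, Gpr137b and Snn. The partners had fewer counts than the members in all 5 cases, so the levels of these members carry an added uncertainty that could not be measured here. Derl3 overlaps Smarcb1, and both had 0 counts. Whether this reflects absent RNA or the counting at this locus was not tested.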

How the data were processed

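Messenger RNA of 12 libraries in 4 groups was analysed from the counts per gene that the authors deposited, which are whole numbers without normalization per the file headers. The FPKM values in the same deposited table were used for levels between genes and for alternatives. The tools HISAT2, CASAVA and StringTie 1.3.0 and the build Rnor_6.0 are named per the submitters' processing notes. The program that counted reads, its annotation and its strand setting were not given in the sources used here. Libraries were made with a stranded kit, per the labels' protocols. Another kind of TAM in the design text was not analysed here.

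Counts were analysed in edgeR 4.0.16 (R 4.3.3) with filterByExpr by group (12360 genes), TMM factors of 0.98 to 1.01 and 1 quasi-likelihood fit of all 12 libraries with 1 mean per group and no block, tested on simulated data beforehand. P-values were adjusted by Benjamini-Hochberg over all tested genes, with a threshold of 0.05. Standard errors are the log2 change over the square root of F. Alternatives used DESeq2 1.42.0 and limma 3.58.1, with limma run on log2(FPKM + 1) and log2(FPKM + 0.1), a scale that understates changes of low genes. The members, the lists beside them and the tests were chosen with earlier results of these data known. Full values are given for Hspa5, Xbp1, Atf6, Ern1 and, per comparison, the 5 called members with the largest change and groups apart; Dnajb11, Os9 and others beyond that rule were chosen after their values were seen. In lists, at most the 2 highest and 2 lowest called genes are named, apart from those followed from one comparison to the next. Promoters are from RefSeq (GRCr8), and gene coordinates are those of the table (Rnor_6.0). Replicate libraries differed beyond sampling noise, so none was taken for a duplicate.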

Additional observations from a re-analysis of the deposited data

Results flagged for a closer look

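In 14 members the effect of MiaTAM co-culture differed from that of BxTAM co-culture, both taken against MDM, by the direct test of MiaTAM against BxTAM (edgeR, adjusted p under 0.05 over all tested genes). Of all tested genes 11% were called higher and 13.3% lower, so the share of members called higher, 11.4%, was that of genes at large. The share of members called lower, 28.6%, was above that of all genes. The difference was positive on the log2 scale for Sdf2l1 (0.44), Dnajb11 (0.16), Calr (0.12) and Pdia4 (0.11). It was negative for Dnajb9 (-0.37), Hspa5 (-0.29), Canx (-0.28), Ero1lb (-0.27), Dnajc3 (-0.24), Hsp90b1 (-0.22), Sel1l (-0.18), Xbp1 (-0.17), Ern1 (-0.16) and Hyou1 (-0.12). The calls held in every alternative for 9 of the 14 members. Those of Pdia4, Calr, Dnajb11, Dnajc3 and Hyou1 were lost when single libraries were left out. The cause of these differences was not tested.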

How the results depend on the processing

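Across 21 alternatives, 104 called member values kept their direction in all of them. Their calls held in every alternative for 32 of 33 values of MDM against cells alone, 23 of 27 of BxTAM against MDM, 29 of 30 of MiaTAM against MDM and 9 of 14 of MiaTAM against BxTAM. With upper-quartile factors, under which the median change of all genes lay between -0.0052 and 0.0676, 1 member was lower with MDM than in cells alone, the members' median change was 0.57 there, and that of MiaTAM against BxTAM was -0.043. With limma on log2(FPKM + 1), the medians were 0.46 for MDM against cells alone, -0.21 for BxTAM against MDM and -0.28 for MiaTAM against MDM, and without a filter they were 0.46, -0.21 and -0.28. With log2(FPKM + 0.1) they were 0.48 for MDM against cells alone and -0.23 for BxTAM against MDM. Without a count filter 0 members were higher with BxTAM than with MDM. Leaving out each library in turn gave 1 to 3 members lower with MDM than in cells alone, 0 to 1 members higher with BxTAM than with MDM, and 2 to 4 members higher with MiaTAM than with BxTAM. The medians then ran from -0.26 to -0.22 for BxTAM against MDM and from -0.34 to -0.29 for MiaTAM against MDM. The cause of these shifts was not tested. Same-numbered libraries did not deviate together (correlations -0.127 to 0.089 in 18 pairs), and with the replicate block 33 members were called in MDM against cells alone, 27 in BxTAM against MDM, 29 in MiaTAM against MDM and 14 in MiaTAM against BxTAM, with Sec61b the only call lost (MiaTAM against MDM). Depth limits the members with few counts most: Sdf2l1 and Dnajb9, at 13.1 and 21.4 CPM in cells alone, had standard errors of 0.10 and 0.09.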
